A study of Homo sapiens with 4 samples.

Results

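The 8 long noncoding RNAs UCA1, LINC00525, HLA-F-AS1, PRRT3-AS1, NEAT1, MALAT1, GAS5 and H19 were followed probe set by probe set in MIA PaCa-2 cells that overexpressed the chromatin protein ING3. They were chosen on the measured difference between ING3 and control cells, or as widely studied RNAs once that difference was known, so the values below are a description of them and support no claim of a difference. Of the 8, 6 had a probe set annotated to them alone, which is what the rule for membership asks for. NEAT1 and H19 had only probe sets annotated also to a small RNA gene inside the same transcript, so they have no value under that rule, and their joint probe sets are given as such. The 6 with a value stand among 2671 long noncoding RNA genes and 19775 genes of the array that had a probe set annotated to them alone.

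MIA PaCa-2 is an established human line of epithelial pancreatic carcinoma. One population received a lentivirus with FLAG-tagged full-length ING3 in a pLenti CMV/TO Puro DEST vector, and the other received a GFP lentivirus as control. Stable cells were selected in both, and RNA was taken from nearly confluent cells in serum-containing medium. Each group has 2 arrays, a and b, which the series' design calls technical duplicates. Differences are therefore set only against the spread between duplicates of 1 population a group, which says nothing of how independent cultures would vary. The signals are linear MAS5 intensities, scaled so that the trimmed mean was 500.07 on each array. Log2 differences are ING3 minus control on log2(signal + 1), with limma's moderated standard error (SE), and means carry the SD over 2 arrays. A gene other than the 8 is said to have risen or fallen only where its adjusted p in limma, over 12190 tested genes, was under 0.05.

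The ING3 probe set itself read 338 and 373 in control cells and 521 and 541 in ING3 cells, a log2 difference of 0.58 with SE 0.13. Its adjusted p was 0.071 in limma, so ING3 itself was not called. The keratins KRT18 (25701 to 30058) and KRT8 (9740 to 12714) and the intermediate filament gene VIM (24294 to 27676) were bright on every array. The epithelial adhesion genes CDH1 (1.92 to 19.7) and EPCAM (15.2 to 37.9) lay below the filter on dim signals, 64.6. Of the markers of other cells, 0 of 3 acinar, 2 of 4 endothelial and 2 of 5 leukocyte genes passed that filter, with summed signals of 63.8 to 91.9, 393 to 479 and 176 to 377. Of the fibroblast markers, 4 of 7 passed, with a sum of 5423 to 6503 that was mostly COL1A2 (3750 to 4648). None of these non-epithelial markers was called, though COL1A1 and COL1A2 had log2 differences of -0.45 and -0.25 at an unadjusted p of 0.047 and 0.0033 in limma. COL3A1 and DCN were at -0.04 and -0.13, and below the filter LUM, PDGFRA and PDGFRB were at 2.43, 1.24 and 0.09. Of the epithelial markers, KRT8, KRT19 and MUC1 were called, higher with ING3 by 0.32, 0.52 and 0.42 on the log2 scale; KRT18 was at 0.13 and KRT7 at -0.16, and CDH1 and EPCAM, below the filter, at -0.34 and -0.61. The part of these markers in the results was not tested. The ratio of 3' to 5' ACTB signal, a sign of RNA integrity, was 2.58 and 1.80 in control and 2.05 and 2.03 in ING3 arrays, so the groups overlapped.

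Long noncoding RNAs are transcripts without a conserved protein product, and they act in several ways. Some stay in the nucleus and organise bodies there, as NEAT1 does for paraspeckles, while MALAT1 gathers in nuclear speckles rich in splicing factors. Others, such as GAS5, carry small nucleolar RNAs in their introns, and antisense transcripts such as HLA-F-AS1 and PRRT3-AS1 are read from the opposite strand of a neighbouring protein gene. UCA1 is a mostly cytoplasmic RNA first described in bladder cancer, and H19 is an imprinted RNA of fetal tissue that is often reactivated in tumours.

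Of the 6 members with a value, all of which passed the filter, 2 had higher and 3 had lower signals in both ING3 arrays than in both control arrays, and MALAT1 overlapped. Over all tested genes, non-overlapping groups were seen in 24.3% with ING3 higher and in 24.9% with ING3 lower. By the fit, 2 members (UCA1 and LINC00525) passed the threshold used for other genes with ING3 higher and 2 (HLA-F-AS1 and PRRT3-AS1) with ING3 lower, where 1.03% of all tested genes were called higher and 0.476% lower. Without a filter, or with the mean of all probe sets, only UCA1 and LINC00525 passed. Without the intensity trend 0 members passed, and with the array letter as a block MALAT1 passed too. Since the contrast of ING3 with control chose the members, nothing is read from those shares or from which members passed.

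**Figure D1:**
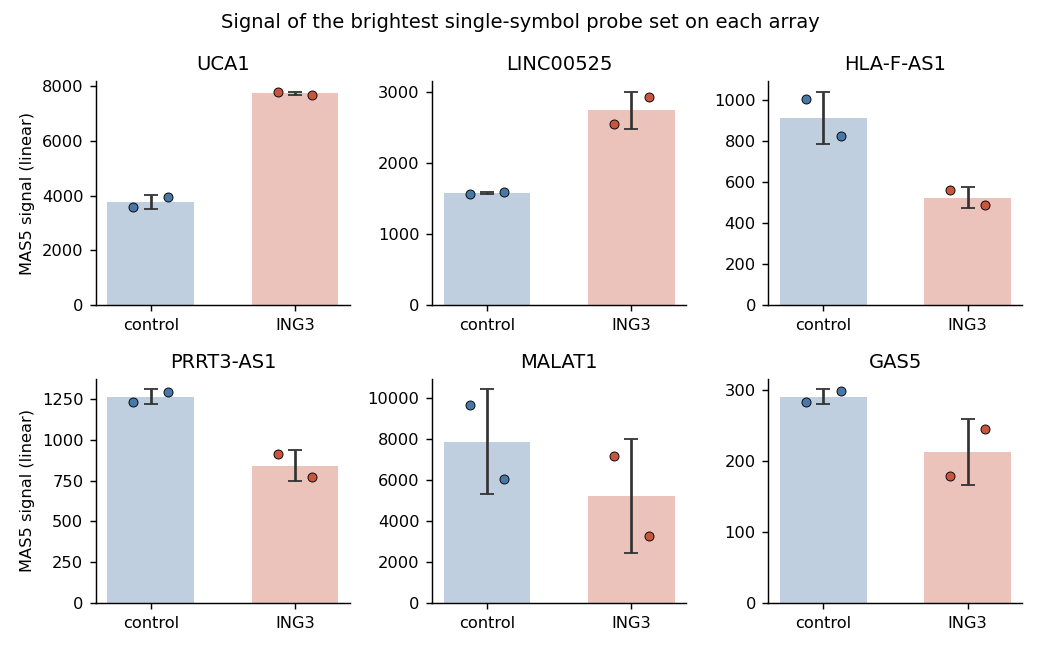
Signal of the 6 members with a probe set of their own on each of the 4 arrays, as MAS5 intensity on a linear axis. Bars are the group means of 2 arrays, with error bars for the SD. UCA1 and LINC00525 sit higher in both ING3 arrays, HLA-F-AS1, PRRT3-AS1 and GAS5 lower, and MALAT1 overlaps.

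UCA1 read 3585 and 3950 in control cells and 7780 and 7692 in ING3 cells. Both ING3 arrays were thus far above both control arrays, and the ING3 duplicates were closer to each other than the control duplicates were. The means were 3767 ± 258 and 7736 ± 62.7 (SD, n = 2), 2.06-fold higher with ING3, and the log2 difference was 1.04 with SE 0.07. UCA1 has 1 probe set on this array. Its difference lay between 0.97 and 1.11 where the pseudocount, the scaling or the arrays used were changed. Remaining alternative settings cannot move the difference of a gene with 1 probe set. Of 15 genes reported to regulate UCA1, among them HIF1A, YAP1, the TEAD factors and the SMADs of TGF-beta signalling, all 15 were tested and 0 were called. At an unadjusted p under 0.05 in limma, 3 were higher and 1 was lower, where 9.54% of all tested genes were higher and 8.19% lower at that p. The list's median log2 difference was 0.04 beside -0.01 over all tested genes. Those 4, named after their values were seen, were the factors CEBPB, TEAD1 and TEAD4 at log2 differences of 0.20, 0.22 and 0.21, and the chromatin remodelling subunit ARID1A at -0.48 with SE 0.14. ARID1A ranged from -0.63 to 0.17 over all alternative settings.

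LINC00525, an intergenic RNA, read 1562 and 1586 in control cells and 2552 and 2923 in ING3 cells. Both ING3 arrays again lay above both control arrays, with the control duplicates almost equal and the ING3 duplicates further apart. The means were 1574 ± 17.2 and 2737.5 ± 263 (SD, n = 2), 1.73-fold higher with ING3, and the log2 difference was 0.79 with SE 0.08. It too has 1 probe set. Its difference lay between 0.70 and 0.89 under the alternative settings that can move it.

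HLA-F-AS1 lies antisense to HLA-F, a nonclassical MHC class I gene. Its bright probe set read 1001 and 823 in control cells and 559 and 487 in ING3 cells, so the control duplicates differed but both stayed above the ING3 arrays. The means were 912 ± 126 and 523 ± 51.3 (SD, n = 2), 1.74-fold lower with ING3, and the log2 difference was -0.80 with SE 0.13. A second probe set of HLA-F-AS1 read 0.82 and 1.82 in control and 2.45 and 21.5 in ING3 cells. All 4 of those signals are below the filter, yet averaging both probe sets turned the direction to a log2 difference of 0.58. HLA-F itself read 1620 and 1438 in control and 1512 and 1314 in ING3 cells, with overlapping groups and a log2 difference of -0.11, SE 0.10. Its other 2 probe sets, at -0.11 and -0.33, overlapped as well.

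PRRT3-AS1, antisense to the gene of the proline-rich transmembrane protein PRRT3, read 1234 and 1298 in control cells and 911 and 774 in ING3 cells. Each ING3 array was below each control array. The means were 1266 ± 44.7 and 842 ± 97.1 (SD, n = 2), 1.51-fold lower with ING3, and the log2 difference was -0.59 with SE 0.10. PRRT3 was dim, at 119 and 157 in control and 144 and 228 in ING3 cells. Those groups overlapped, and its log2 difference of 0.41 had an SE of 0.29. With 1 array left out in turn, PRRT3-AS1 lay between -0.71 and -0.47. Neither sense gene was called, and whether the antisense and sense differences differ was not tested. The strand of the probes is not given in the sources used here.

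Start-site sequence from RefSeq (GRCh38.p14) was at hand for 5 of the 8 members, 250 bases before to 50 after the start. The windows of the 2 antisense members are shown because antisense RNAs often start in the CpG-rich promoter of a gene nearby, and each CpG is in capitals. HLA-F-AS1 is at chr6:29749000-29749299 on the minus strand, and PRRT3-AS1 at chr3:9947154-9947453 on the plus strand, where RefSeq's PRRT3 covers the window.
HLA-F-AS1: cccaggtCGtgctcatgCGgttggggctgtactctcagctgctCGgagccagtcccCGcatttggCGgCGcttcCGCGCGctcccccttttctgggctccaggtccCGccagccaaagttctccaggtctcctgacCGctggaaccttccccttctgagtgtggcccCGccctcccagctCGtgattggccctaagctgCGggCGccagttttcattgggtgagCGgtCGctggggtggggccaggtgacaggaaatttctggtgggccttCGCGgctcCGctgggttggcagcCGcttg
PRRT3-AS1: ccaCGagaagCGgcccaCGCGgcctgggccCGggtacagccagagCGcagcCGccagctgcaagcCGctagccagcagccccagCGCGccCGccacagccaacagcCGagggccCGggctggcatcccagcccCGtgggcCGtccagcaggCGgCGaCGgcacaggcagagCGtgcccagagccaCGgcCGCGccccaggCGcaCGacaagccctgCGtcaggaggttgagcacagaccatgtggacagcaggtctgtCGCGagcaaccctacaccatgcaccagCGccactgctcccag
The first holds 21 CpG at 66% G and C, and the second 28 CpG at 72.7%. The medians over all promoter windows of the table were 14 CpG and 58.7%. A CpG-rich start was not particular to the antisense members. The 2 windows of MALAT1 held 37 and 14 CpG, that of GAS5 held 5 and that of H19 held 6. No other RefSeq gene covered the HLA-F-AS1 window.

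These windows and those of MALAT1, GAS5 and H19 were searched on both strands for 6 short motifs. The share of all 35116 windows with a match was 7.71% for AP-1 (TGANTCA), 1.85% for the cAMP response element (TGACGTCA), 14.0% for TEAD (GGAATG) and 21.4% for the hypoxia core (ACGTG). It was 13.3% for the antioxidant element (TGACNNNGC) and 7.26% for the E-box (CACGTG), which contains the hypoxia core. No motif matched in the windows of HLA-F-AS1, PRRT3-AS1, GAS5 or H19. Of the 2 windows of MALAT1, the first had 2 antioxidant matches, at bases -231 and -51 from the start. A match is a description of letters only, and so is its absence.

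MALAT1, the speckle RNA, has 12 probe sets, all annotated to it alone and all past the filter. The brightest read 9677 and 6064 in control cells and 7188 and 3266 in ING3 cells. The groups overlapped, because control b lay below ING3 a. The means were 7870.5 ± 2554.5 and 5227 ± 2773.5 (SD, n = 2), and the log2 difference was -0.66 with SE 0.31. Array b was below array a by 0.67 in control and by 1.14 in ING3 cells on the log2 scale, a decrease found in this size in both groups for 12 tested genes, MALAT1 included. The median b minus a over tested genes was -0.01 in both groups.

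Over the 12 MALAT1 probe sets, the log2 difference ran from -1.07 to 0.02 with a median of -0.73. The mean was lower in ING3 cells on 11, and on 7 both ING3 arrays were below both control arrays. Over all tested genes that held for 24.9%, a share of genes and not of probe sets. One of those 7, 1558678_s_at, read 8278 and 6291 in control and 4895 and 2748 in ING3 cells. The overlap on 226675_s_at was wide, at 4127 and 1778 in control and 3288 and 1272 in ING3 cells. Array ING3 b was the lowest of the 4 on 9 of the 12. The probe sets read 1 transcript from the same RNA and are not replicates.

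With ING3 b left out, the MALAT1 log2 difference was -0.09, and with ING3 a left out it was -1.23. Without control a it was -0.32 and without control b -0.998. The 1 probe set of MALAT1 of the kind made to match a single transcript, 224559_at, gave -0.02. Of 27 nuclear speckle and SR splicing proteins, 25 were tested and 0 were called. At an unadjusted p under 0.05 in limma, 2 were higher and 6 lower, against 9.54% and 8.19% of all tested genes. Their log2 differences ran from -0.36 to 0.30 with a median of -0.01, the median of all tested genes.

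NEAT1, the scaffold of paraspeckles, was read by 9 probe sets annotated also to MIR612, a microRNA gene within it, so their signal cannot be given to NEAT1 alone. The brightest, 225239_at, read 6158 and 8542 in control and 6032 and 5320 in ING3 cells, a log2 difference of -0.36 with SE 0.14. Both ING3 arrays were below both control arrays there, though control a and ING3 a were close. The next, 224565_at, read 5130 and 5525 in control and 5560 and 4683 in ING3 cells and overlapped, at -0.06. Over the 9 probe sets the difference ran from -0.64 to 0.41 with a median of -0.06, and 6 were lower and 3 higher. Of 21 paraspeckle proteins, 20 were tested and 0 called, with 1 higher and 1 lower at an unadjusted p under 0.05 in limma (9.54% and 8.19% of all tested genes). The core proteins NONO, SFPQ and PSPC1 were at -0.03, 0.09 and 0.04.

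**Figure D2:**
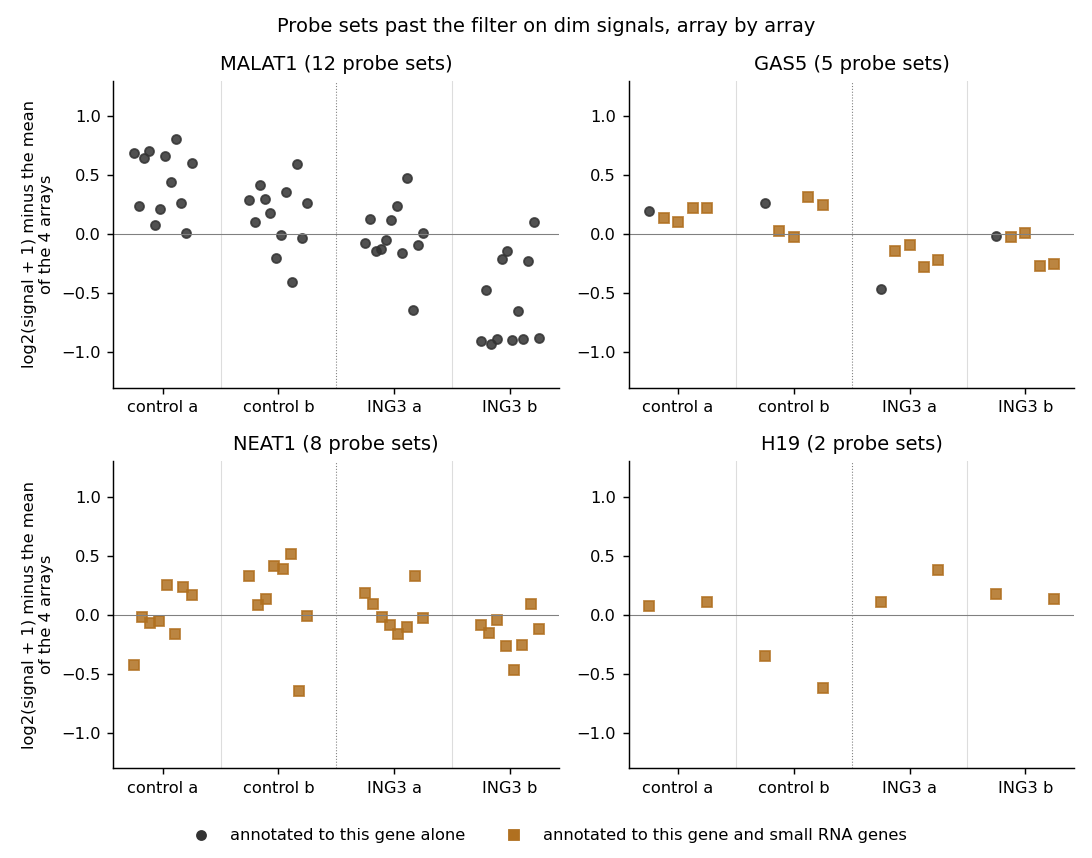
Each point is 1 probe set on 1 array, as log2(signal + 1) minus that probe set's mean over the 4 arrays, for MALAT1, GAS5, NEAT1 and H19; squares are probe sets annotated also to small RNA genes. Most MALAT1 probe sets are lowest on ING3 b. Of the 5 GAS5 probe sets, 4 are lower on both ING3 arrays than on both control arrays, and 3 of the 8 NEAT1 probe sets are. Of all tested genes, 24.9% are.

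GAS5 is spliced to a short-lived RNA, known to be degraded by nonsense-mediated decay, and its introns yield box C/D small nucleolar RNAs. Its own probe set read 284 and 298 in control cells and 179 and 245 in ING3 cells. Both ING3 arrays were lower but apart from each other, with means of 291 ± 10.0 and 212 ± 46.5 (SD, n = 2). The log2 difference was -0.47 with SE 0.20; it was -0.25 without ING3 a and -0.69 without ING3 b. A further 4 probe sets are annotated to GAS5 together with 8 SNORD genes and were much brighter. On 227517_s_at the signals were 4843 and 5187 in control and 3436 and 3441 in ING3 cells, a log2 difference of -0.54 with SE 0.07. On 228238_at they were 2385 and 2438 in control and 1758.5 and 1717 in ING3 cells, at -0.47. The brightest 2, 224741_x_at and 224841_x_at, differed by -0.16 and -0.08, both with SE 0.07. So all 4 were lower with ING3 and 3 had groups apart, as 24.9% of all tested genes had with ING3 lower. The size differed between the 4 by more than their SEs.

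The GAS5 start is shown because genes of this kind are known to begin in a run of C and T, as do messenger RNAs of ribosomal proteins. At the RefSeq start used here that run had 0 bases. The window is chr1:173868996-173869295 on the minus strand of GRCh38.p14, and its longest run of C and T after the start, in capitals, has 8 bases and begins at base 32.
GAS5: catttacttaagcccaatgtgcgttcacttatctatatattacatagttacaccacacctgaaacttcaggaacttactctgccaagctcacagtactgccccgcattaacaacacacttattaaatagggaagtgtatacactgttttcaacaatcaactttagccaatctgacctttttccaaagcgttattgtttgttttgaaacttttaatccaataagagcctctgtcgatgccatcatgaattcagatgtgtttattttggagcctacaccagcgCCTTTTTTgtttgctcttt
It is poor in CpG, with 5 at 37.7% G and C. Of 27 other host genes of small nucleolar RNAs, 13 had only joint probe sets and 7 were tested. Of those 7, 0 were called, with 0 higher and 2 lower at an unadjusted p under 0.05 in limma (9.54% and 8.19% of all tested genes), and the log2 differences ran from -0.19 to 0.12. Of 14 factors of nonsense-mediated decay, 8 were tested and 0 called, with 0 at an unadjusted p under 0.05, at -0.06 to 0.29.

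H19 was read by 2 probe sets annotated also to MIR675, the microRNA cut from its first exon, and both were dim. On 224646_x_at the signals were 184 and 137 in control and 189 and 197 in ING3 cells, a log2 difference of 0.28 with SE 0.23. On 224997_x_at they were 129 and 77.6 in control and 156 and 131 in ING3 cells, at 0.51 with SE 0.31. Both ING3 arrays were above both control arrays, by a margin smaller than the distance between the control duplicates. Over all tested genes, 24.3% had groups apart with ING3 higher. IGF2, the growth factor gene imprinted in the opposite way, was read only by 3 joint probe sets. The 1 past the filter was at 135 and 122 in control and 165 and 145 in ING3 cells, and the other 2 were at 4.25 to 18.9. Of 23 imprinted genes, 11 were tested and 0 called, with 1 higher and 2 lower at an unadjusted p under 0.05 in limma (9.54% and 8.19% of all tested genes). Of 6 RNA-binding proteins of the IGF2BP, LIN28 and ELAVL1 list, 3 were tested and 0 called, with log2 differences of 0.08 to 0.26 and 2 higher at an unadjusted p under 0.05.

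Of the 2665 other long noncoding RNA genes of the array with a probe set annotated to them alone, 698 passed the filter. Of these, 0 were called higher and 3 were called lower, 0.43% against 0.476% of all tested genes. At an unadjusted p under 0.05 in limma, 21 (3.01%) were higher and 60 (8.60%) lower, against 9.54% and 8.19% of all tested genes. SLC25A25-AS1 fell from 313 and 344 to 173 and 170, a log2 difference of -0.93 (SE 0.18, adjusted p 0.042 in limma). LOC100190986 fell from 656 and 668 to 388 and 371, at -0.80 (SE 0.12, adjusted p 0.018 in limma), while its dim second probe set was at -0.06. FTX, an RNA of the X-inactivation centre, fell from 4727 and 6023 to 3895 and 3259, at -0.58 (SE 0.12, adjusted p 0.047 in limma), and its second probe set gave -0.63. SLC25A25, the sense partner of the first, overlapped between groups at 0.21 with SE 0.23 and was named after its value was seen. Over 14 alternative settings these RNAs kept their sign, and FTX was called in 4, SLC25A25-AS1 in 5 and LOC100190986 in 10. Where 1 array is left out, its group has a single array that is assumed to vary like the other group. With either control array left out, none of the 3 was called; without ING3 a, SLC25A25-AS1 lost its call, and without ING3 b, SLC25A25-AS1 and FTX did.

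The other long noncoding RNAs had a median log2 difference of -0.08 beside -0.01 over all tested genes, and 60.5% of them had a lower mean with ING3 against 51.7%; with quantile or cyclic loess scaling the median was 0.02 in either case. They were dim, with a median signal of 136 against 789, and their median SE was 0.28 against 0.11. Of 44 other widely studied long noncoding RNAs, 22 were tested and FTX alone was called, lower. At an unadjusted p under 0.05 in limma, 2 were higher and 5 lower, against 9.54% and 8.19% of all tested genes, and their median was -0.13. At either end, named after the values were seen, HOTTIP read 99.0 and 164 in control and 14.6 and 92.8 in ING3 cells, and CYTOR read 89.9 and 97.5 in control and 154 and 132 in ING3 cells. Neither was called.

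**Figure D3:**
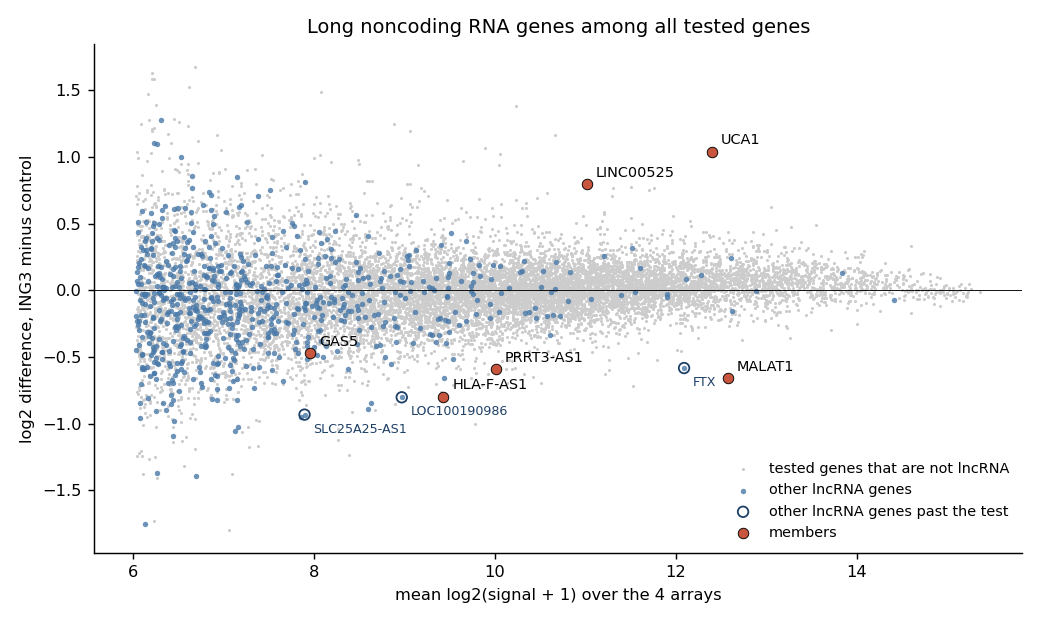
Log2 difference, ING3 minus control, against mean log2(signal + 1) for the 12190 tested genes, with the other long noncoding RNAs and the 6 members marked. UCA1 lies at 1.04 and LINC00525 at 0.79, among bright genes, while most of the other 698 long noncoding RNAs are dim, with a median signal of 136.

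The genes next to the members in RefSeq, up to 2 on each side with a value on the array, numbered 28 without the members. Of these, 17 were tested and 0 were called, with 0 at an unadjusted p under 0.05 in limma, and their log2 differences ran from -0.71 to 0.48. Beside UCA1, only the olfactory receptor gene OR10H3 was tested, at -0.33 with SE 0.37. Beside LINC00525, the focal adhesion gene TNS3 was at -0.08 with SE 0.06 and PKD1L1-AS1 at -0.10. HLA-G, next to HLA-F-AS1, was at -0.10, and CRELD1 and EMC3, next to PRRT3-AS1, were at 0.48 and 0.15. NEAT1 and MALAT1 are neighbours, and the genes around them, FRMD8, SLC25A45 and LTBP3, were at 0.13, 0.07 and -0.02. Over the settings SLC25A45 ranged from -0.13 to 0.28 and LTBP3 from -2.10 to 0.07, the lowest with its brightest probe set of the unique kind. Around GAS5, CENPL was at -0.09 and ZBTB37, which starts from the opposite strand, at -0.21. MRPL23, which overlaps H19, was at -0.07. TNNT3, also beside H19, was the lowest at -0.71 with SE 0.37 and was dim, with signals of 50.7 to 89.7. The signs of TNS3, EMC3, EMC3-AS1, ZBTB37, MRPL23 and TNNT3 also turned under some settings. TNNT3 ranged from -0.77 to 1.11.

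**Figure D4:**
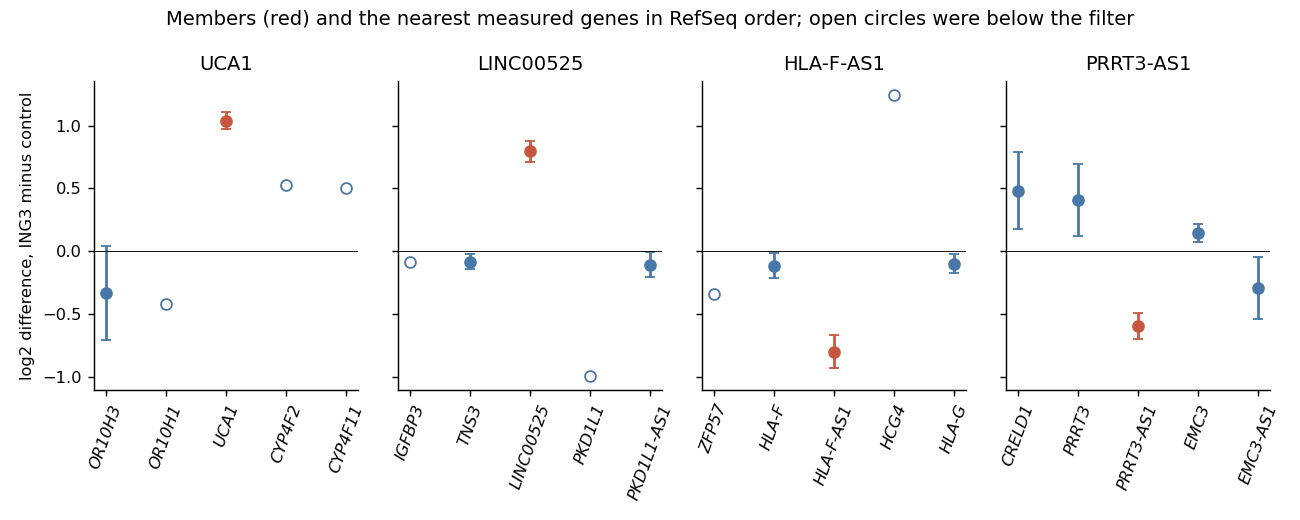
Log2 difference, ING3 minus control, of UCA1, LINC00525, HLA-F-AS1 and PRRT3-AS1 and of their nearest genes with a value on the array, by locus. Open symbols mark genes below the filter on dim signals. Filled neighbours lie between -0.33 (OR10H3) and 0.48 (CRELD1), and no neighbour shown was called.

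Genes with the pattern most like UCA1 were found by the root mean square distance of centred log2 signals over the 4 arrays. The nearest were SERPINE2, a protease inhibitor, at a distance of 0.02, the keratin KRT13 at 0.03, the fatty acid hydroxylase FA2H at 0.07 and the DNA repair gene ERCC6 at 0.07. SERPINE2 rose from 726 and 768 to 1534 and 1505, a log2 difference of 1.02 with adjusted p 0.003 in limma. It was called in 10 of 14 alternative settings, and its difference was 0.12 with the mean of all its probe sets. The fifth, GLYCTK, had a log2 difference of 0.90 and was not called. For HLA-F-AS1 the nearest were NOMO3 at a distance of 0.03, LOXL3 at 0.05, PIK3R3 at 0.06, RPH3A at 0.06 and ARHGAP20 at 0.06. Of these only PIK3R3, a regulatory subunit of PI3-kinase, was called: it fell from 1995 and 1723 to 1217 and 1075, at -0.70 with adjusted p 0.017 in limma, and was called in 10 of the 14 settings. With 4 arrays, such likeness mostly restates the group difference. These genes were picked by likeness to members chosen on the same contrast, so their differences and calls give no separate support.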

How the data were processed

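Total RNA of the 2 control and 2 ING3 samples was labelled with biotin and hybridised to 1-colour Affymetrix arrays, per the labels' protocols. The authors deposited a table of linear signal intensity for 54675 probe sets. The tools named, per the submitters' processing notes, are Affymetrix Expression Console and MAS5. Their versions were not given in the sources used here. MAS5 subtracts mismatch signal, so dim values vary widely. Of the 54675 probe sets, 41097 had 1 gene symbol, 1801 several and 11777 none in GEO's platform annotation. The 62 control probe sets among them were left out of the fit. Symbols, gene types and neighbours came from RefSeq tables of GRCh38.p14. Where the type was missing, 15 long noncoding RNAs were taken by their symbol.

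Each gene was represented by its brightest probe set, by mean log2(signal + 1), and the SE of a jointly annotated probe set came from a fit over all probe sets. Genes whose mean reached the median of all probe sets were tested (12190 of 19775) with limma 3.58.1 in R 4.3.3 (intensity trend, two-sided, Benjamini-Hochberg adjustment, no covariates). The fit had 2 residual and 7.35 prior degrees of freedom, and its script was checked on simulated data. Precision is limited by the number of arrays. Array letters did not pair the groups: same-letter deviations correlated at 0.03 over 12190 genes.

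Named were every probe set of the 8 RNAs, their sense partners and neighbours, called long noncoding RNAs, called list members and the nearest patterns. The members and lists were chosen with earlier results of these data known. Alternatives changed the pseudocount, filter, scaling, trend, probe set rule, block and arrays used.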

Additional observations from a re-analysis of the deposited data

How the results depend on the processing

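Of the 6 RNAs with a value, UCA1 (0.97 to 1.11), LINC00525 (0.70 to 0.89), PRRT3-AS1 (-0.71 to -0.47), MALAT1 (-1.23 to -0.02) and GAS5 (-0.69 to -0.25) kept their direction over the 15 alternatives, the fit over every probe set included, and HLA-F-AS1 (-0.94 to 0.58) turned only with the mean of all probe sets, at 0.58. For UCA1, LINC00525, PRRT3-AS1 and GAS5, with 1 probe set of their own, only pseudocount, scaling and the arrays used could move the difference. Over all genes, 125 were called higher and 58 lower. Without a filter these were 42 and 12, with quantile scaling 79 and 36, with the mean of all probe sets 26 and 11, and without the trend 0 and 0. Cyclic loess gave 36 lower, and the unique kind of probe set 83 higher. Leaving out 1 array in turn gave 2 to 189 higher and 0 to 116 lower. The 3 other long noncoding RNAs called lower were 1 without a filter, with quantile scaling or with cyclic loess, 5 with a filter at a signal of 200, 0 without the trend or with the mean of all probe sets, and 0 to 5 with 1 array left out; cyclic loess called 1 higher. With the array letter as a replicate block, which the data did not bear out as a pairing, the counts were 263 higher, 179 lower, and 2 higher and 11 lower among other long noncoding RNAs. The causes were not tested. Signals near the filter limit what the dim RNAs can show: with a median SE of 0.28, differences of their median size, 0.21, could not be told from duplicate error.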

Other observations

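Antisense and sense genes were also set side by side over the whole array, by symbol. In 199 pairs both genes were tested, HLA-F-AS1 with HLA-F and PRRT3-AS1 with PRRT3 included. In limma, 3 antisense genes were called, of which 2 are HLA-F-AS1 and PRRT3-AS1, chosen for their difference. So 1 of the 197 other pairs had the antisense gene called. Those 197 still hold GAS5-AS1 with the member GAS5, at 0.13 and -0.47, neither of them called. Of the sense genes 5 were called, all of them with ING3 higher, where 1.03% of all tested genes were called higher and 0.476% lower. In 0 pairs were both called; 3 pairs had both at an unadjusted p under 0.05. The differences of both genes had the same sign in 111 pairs, 55.8%. The antisense gene had a lower mean with ING3 in 119 pairs and the sense gene in 97. Of the other long noncoding RNAs 60.5% had a lower mean, and of all tested genes 51.7%. With quantile scaling the share of the other long noncoding RNAs was 47.4%, and with cyclic loess 47.0%. The pair counts come with no test.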
